A study of Homo sapiens with 4 samples.

Results

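The replication genes are 57 genes that license replication origins, build and run the fork, supply nucleotides and control entry into S phase, compared here between CD133+ and CD133- cells of 1 cell line. They were taken by name: every probe set whose single platform gene symbol was one of the 57 symbols was used, which gave 107 of the 54675 probe sets on the array and 57 of its 19775 named genes. Huh7 is an established line of human hepatocellular carcinoma, and its cells were separated by flow cytometry into those that carry CD133, the surface protein encoded by PROM1, and those that do not. Total RNA from each population was labelled with biotin and hybridised to an array. The RMA (log2 values) and MAS5 (linear signals) samples were taken as summaries of the same arrays, 1 per population. This was inferred, since their labels differ only in the algorithm. No treatment, time point or passage is named in the labels, the sources used here do not describe the gates of the sort, and all cells come from this 1 line. No array was repeated, so differences have no replicate error, no test was possible, and every value describes these arrays.

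Before a cell copies its DNA, the origin recognition complex recruits CDC6 and CDT1, which load the MCM helicase onto origins in G1; this step is called licensing. At the start of S phase the kinases CDC7-DBF4 and cyclin E-CDK2 turn the loaded helicase into a moving fork, where polymerases, the PCNA clamp and its loader copy the strands. Many of these genes are switched on together at the G1/S border by E2F transcription factors, and in liver cancer they are widely read as marks of proliferation.

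The sorted populations differed in the sort marker in the direction of their labels: PROM1 had RMA values of 10.49 in CD133+ and 5.33 in CD133- cells. A gene was taken as above the floor when its brighter RMA value exceeded 4.86, the median of that quantity over probe sets, and 12899 genes passed. Of the 18 hepatocyte markers listed, 16 were measured and all 16 passed. Their MAS5 signals summed to 537846 in CD133+ and 543329 in CD133- cells. Of 10 blood cell markers, 7 were measured and 4 passed, with summed signals of 13248 and 13994. Most of that sum came from LYZ, which encodes lysozyme and had signals of 12748 and 13466; CD14, CD3E and HBB also passed, and the leukocyte marker PTPRC lay below the floor on both arrays. Of 11 endothelial and stromal markers 6 passed, and their 11 signals summed to 3155 in CD133+ and 1778 in CD133- cells. COL1A2 (signals of 1617 and 670) and LUM (499 and 13) were more than 2-fold higher in CD133+ cells. LUM passed the floor only through the CD133+ array, with RMA values of 6.08 and 2.17. The others that passed differed less by RMA: PECAM1 by 0.23, COL1A1 by 0.04, VWF by 0.02 and PDGFRB by -0.25. The part of these markers in the replication gene values was not tested.

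Replication genes were, for the most part, slightly lower in CD133+ cells. All 57 genes lay above the floor on both arrays. By RMA, 43 were lower in CD133+ cells, 12 were higher and 2 had equal values. Of all genes above the floor, 51.1% were lower and 45.6% higher. The median difference, CD133+ minus CD133- on the log2 scale, was -0.12 for the replication genes and -0.01 for all genes. The differences ran from -0.43 for MCM10 to 0.21 for DBF4. None of the 57 genes was 2-fold lower or higher, against background shares of 0.116% and 1.65%. A smaller limit was set at 0.32 on the log2 scale, where the higher value exceeds the lower by 25%. By at least this much, 3 genes were lower, MCM10, UNG and MCM5, and 0 were higher. The background shares at that limit were 5.57% lower and 8.69% higher, so the 3 genes, 5.26% of the members, are no more than the share among all genes. On the higher side, 0 of 57 genes reached the limit that 8.69% of all genes reached.

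**Figure D1:**
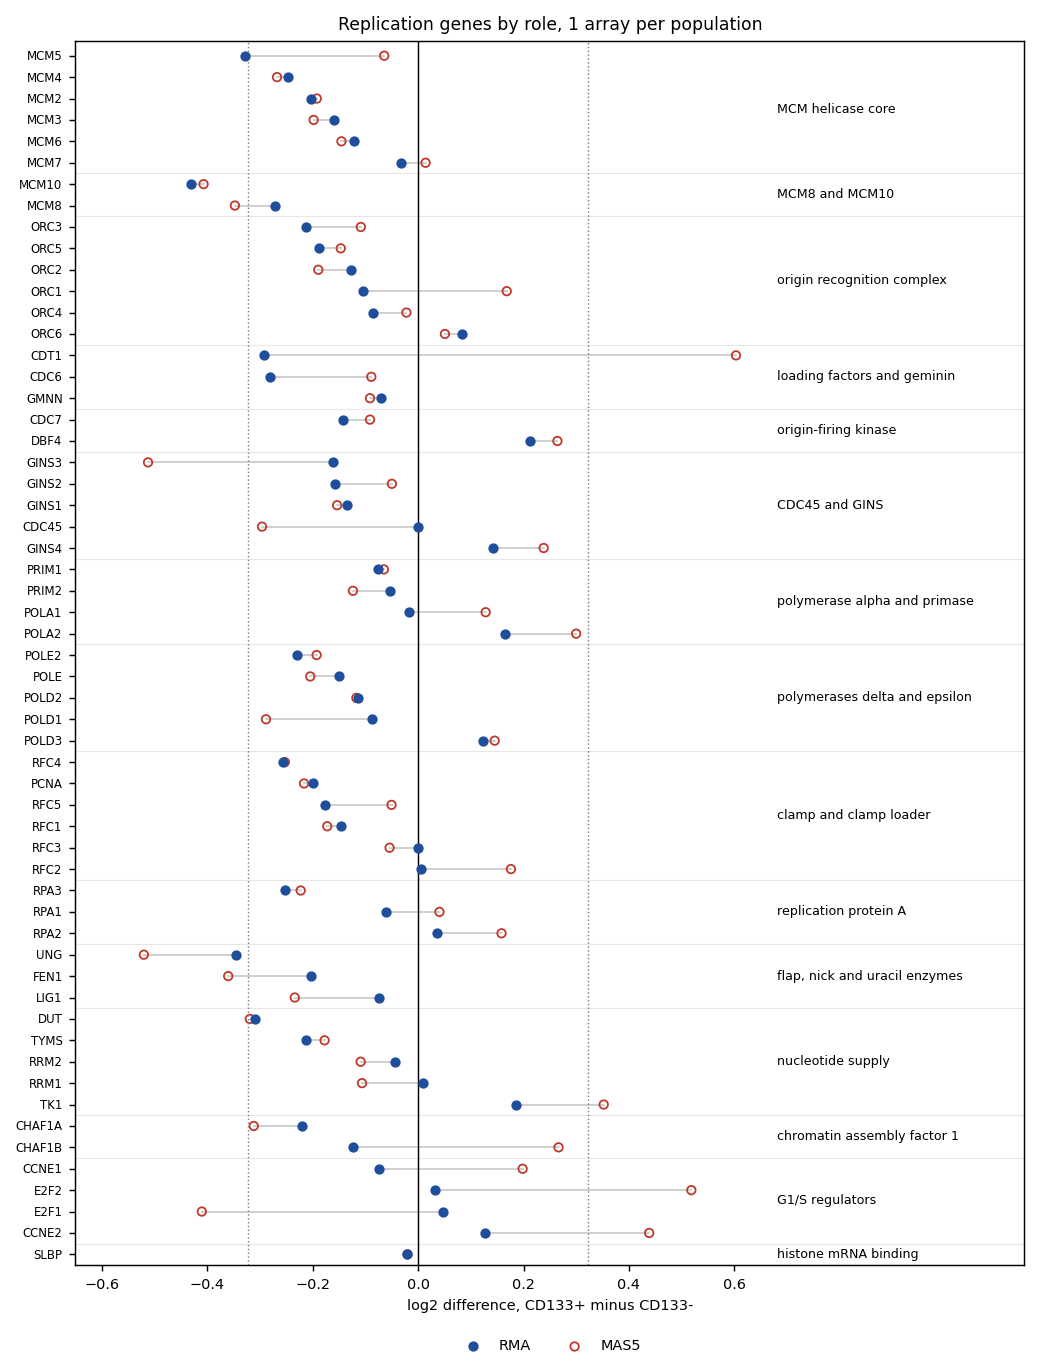
Log2 difference (CD133+ minus CD133-) of each of the 57 replication genes, grouped by role, with RMA as filled and MAS5 as open points; dotted lines mark differences of 0.32. Filled points lie left of 0 for 43 genes, with MCM10, UNG and MCM5 beyond the left dotted line and none beyond the right one.

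A technical spread was taken from genes measured by more than 1 probe set. Above the floor, the differences of 2 probe sets of the same gene disagreed with an SD of 0.24 over 16955 pairs, which gives 0.17 for a single probe set. This leaves out variation between sorts, cultures and hybridisations. Among the replication genes, 19 were lower by more than 0.17 and 2 were higher by more than that, DBF4 and TK1. Of all genes above the floor, 18.9% were lower and 19.0% higher by that much. The replication genes' own probe sets agreed more closely, with an SD of 0.19 over 54 pairs, or 0.13 for a single probe set. By more than that, 26 genes were lower and 4 higher. Whether most replication genes differed by more than this spread thus depended on which pairs set it. The share of all genes beyond 0.13 was not counted, but their lower and upper quartiles were -0.131 and 0.118.

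Promoter sequence is shown for 4 members because E2F control at G1/S is the textbook link between these genes. RefSeq promoter windows (GRCh38.p14, 250 bases before to 50 after each start) were found for 50 of the 57 genes; MCM4, MCM5, GINS4, POLD3, RPA2, RPA3 and CCNE2 had none. The E2F letters searched on both strands were TTTCCCGC, TTTGGCGC, TTTCGCGC and TTTGCCGC, and the CCAAT box, bound by NF-Y, was searched as CCAAT. The choice was limited to genes with 1 window whose printed bases lie in no other gene. From these, the bases before the start are printed for MCM10, the lowest member, and for MCM6, which had the most E2F matches. CDT1 and POLA2 are printed as the lowest and highest of these genes with an E2F match. UNG and DUT also had a match and were lower than CDT1, but had more than 1 window. Capitals mark E2F letters and CCAAT boxes.
MCM10, chr10:13161308-13161557, plus strand: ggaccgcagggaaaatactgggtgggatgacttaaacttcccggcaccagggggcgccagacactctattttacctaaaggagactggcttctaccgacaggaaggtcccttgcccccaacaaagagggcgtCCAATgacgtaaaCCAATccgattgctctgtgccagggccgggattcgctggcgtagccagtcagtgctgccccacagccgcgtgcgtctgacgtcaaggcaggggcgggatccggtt
CDT1, chr16:88803539-88803788, plus strand: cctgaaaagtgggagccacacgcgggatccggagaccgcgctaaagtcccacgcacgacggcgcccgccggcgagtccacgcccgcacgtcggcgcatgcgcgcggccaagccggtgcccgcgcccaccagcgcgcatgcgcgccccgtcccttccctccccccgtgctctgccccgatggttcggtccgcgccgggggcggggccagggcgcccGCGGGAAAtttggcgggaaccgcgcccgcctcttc
MCM6, chr2:135876444-135876693, minus strand: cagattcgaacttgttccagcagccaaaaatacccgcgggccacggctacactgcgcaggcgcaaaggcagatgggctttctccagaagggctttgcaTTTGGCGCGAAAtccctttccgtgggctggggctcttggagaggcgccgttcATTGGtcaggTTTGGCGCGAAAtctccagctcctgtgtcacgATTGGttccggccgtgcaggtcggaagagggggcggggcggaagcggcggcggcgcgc
POLA2, chr11:65261712-65261961, plus strand: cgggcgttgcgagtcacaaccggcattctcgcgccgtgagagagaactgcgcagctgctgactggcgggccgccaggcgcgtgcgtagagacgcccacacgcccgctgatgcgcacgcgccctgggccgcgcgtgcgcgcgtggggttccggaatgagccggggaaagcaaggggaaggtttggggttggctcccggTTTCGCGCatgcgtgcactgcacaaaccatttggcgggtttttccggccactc

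MCM6 held 4 E2F matches in 2 blocks, in each of which a TTTGGCGC and a TTTCGCGC on the opposite strand overlap, and 2 CCAAT boxes on the minus strand of the window. CDT1 had TTTCCCGC on the opposite strand at 35 to 28 bases before the start, and POLA2 had TTTCGCGC at 53 to 46 bases before it. MCM10 had 2 CCAAT boxes and no E2F letters in the window. Of the 50 genes, 25 (50%) held an E2F match in a window, against 3.99% of all 27305 genes with a window. CCAAT boxes were found in 56.0% of the members and 39.7% of all genes, and in 84.0% of 25 mitosis genes, of which 12.0% held an E2F match. The 25 members with an E2F match had a median RMA difference of -0.16, with 21 lower, and the 25 without had -0.09, with 19 lower. These ranges overlapped almost wholly, from -0.35 to 0.17 with a match and from -0.43 to 0.21 without. A match describes letters only, and 3 pairs of E2F matches and 1 E2F match with a CCAAT box overlapped among the member windows.

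The helicase genes were lower as a set. MCM2 to MCM7 encode the hexameric helicase that is loaded onto origins, and all 6 were lower in CD133+ cells, with a median difference of -0.18. MCM5 was the lowest of them, with RMA values of 8.29 in CD133+ and 8.62 in CD133- cells, a 1.26-fold difference. Its second probe set was lower by more (-0.41), but MAS5 gave only -0.06 on the brighter one, with signals of 1726 and 1805. MCM4 read 10.02 and 10.27, and all 5 of its probe sets were lower, from -0.09 to -0.30. MCM2 (10.28 and 10.48), MCM3 (9.61 and 9.76) and MCM6 (10.96 and 11.08) differed by -0.20, -0.16 and -0.12. MCM7 was the exception in size, with 10.91 and 10.94, and its second probe set differed by 0.03. Thus 5 of the 6 subunits were lower by both algorithms, and MCM7 had opposite signs (-0.03 by RMA and 0.01 by MAS5).

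The lowest gene of all was MCM10, which encodes a scaffold that helps to start the helicase. Its RMA values were 8.51 in CD133+ and 8.94 in CD133- cells, a 1.35-fold difference, and its MAS5 signals were 1275 and 1690. All 3 probe sets were lower, by -0.43, -0.43 and -0.31. Among the 12899 genes above the floor, 2.37% had a lower difference than MCM10. MCM8, a helicase of the MCM family that acts in homologous recombination with MCM9, had RMA values of 7.77 and 8.04 and differed by -0.27, and by -0.35 with MAS5.

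Origin recognition genes were lower by smaller amounts. Of the 6 subunits of the complex that marks origins, 5 were lower and ORC6 was higher, with a median of -0.12. ORC3 was the lowest, with 8.93 in CD133+ and 9.14 in CD133- cells, a difference of -0.21. ORC6 read 9.14 and 9.06, a difference of 0.08. ORC1, the subunit that varies with the cell cycle in human cells, differed by -0.10 with RMA and by 0.17 with MAS5. ORC2 had a pair of probe sets that were both lower, by -0.13 and -0.37.

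Both loading factors were lower by RMA. CDC6, the ATPase that joins the complex on DNA in G1, had values of 8.02 and 8.30, a difference of -0.28, and its second probe set differed by -0.21. MAS5 gave CDC6 a smaller difference of -0.09, with signals of 1425 and 1515. CDT1, which brings the helicase to the origin, had 8.89 in CD133+ and 9.18 in CD133- cells, a difference of -0.29. MAS5 gave the opposite sign on that CDT1 probe set, with signals of 2179 and 1435 (a difference of 0.60), the widest disagreement between the algorithms among the members. The second CDT1 probe set was lower by both, by -0.22 with RMA and -0.42 with MAS5. GMNN, which encodes geminin, the inhibitor of CDT1, differed by only -0.07 (10.53 and 10.60). The median of these 3 genes was -0.28 by RMA and -0.09 by MAS5. CDT1 was thus lower on both probe sets by RMA, whereas by MAS5 its probe sets had opposite signs.

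The origin-firing kinase was split between its subunits. DBF4, the regulatory subunit, was the highest replication gene, with RMA values of 9.210 in CD133+ and 8.998 in CD133- cells and MAS5 signals of 2812 and 2341. Its difference of 0.21 exceeded that of 85.2% of genes above the floor. CDC7, the catalytic subunit, had 7.84 and 7.99 and differed by -0.14. Each was measured by 1 probe set.

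CDC45 and the GINS proteins join the MCM hexamer to form the active helicase. CDC45 had the same RMA value of 7.65 on both arrays, and its MAS5 signals were 843 and 1035. GINS1, GINS2 and GINS3 were lower by -0.14, -0.16 and -0.16, and MAS5 placed GINS3 at -0.51, with signals of 485 and 692. GINS4 depended on the probe set. The brightest one was higher in CD133+ cells (9.24 against 9.10), another differed by 0.03, and another read 6.12 and 6.63, a difference of -0.51 that was the largest of any replication probe set above the floor.

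Polymerase alpha with primase, which lays down the RNA-DNA primers, showed a median of -0.04 over 4 genes. POLA2, the accessory subunit, was higher, with 7.37 in CD133+ and 7.20 in CD133- cells, although its other probe sets differed by 0.23 and -0.32. PRIM1, the catalytic primase subunit, was the lowest of the 4 at -0.08, POLA1 differed by -0.02 and PRIM2 by -0.05. The strand polymerases delta and epsilon had a median of -0.11 over 5 genes. POLE2, the second subunit of the leading-strand polymerase, was lowest with 8.18 and 8.41, a difference of -0.23. POLD3, an accessory subunit of the lagging-strand polymerase, was the only higher one, with 6.86 and 6.74. The catalytic subunits POLE and POLD1 differed by -0.15 and -0.09, and POLD2 by -0.11.

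PCNA, the sliding clamp, had RMA values of 11.48 in CD133+ and 11.68 in CD133- cells, a difference of -0.20, and MAS5 signals of 12070 and 14022. Its loader is made of RFC1 to RFC5, whose values differed among themselves. RFC4 read 10.21 and 10.47, a difference of -0.26 by RMA and -0.25 by MAS5. RFC5 and RFC1 differed by -0.18 and -0.15, RFC3 had the same value of 9.06 on both arrays, and RFC2 differed by 0.01. Replication protein A, which coats single-stranded DNA, was just as uneven: RPA3 had 10.27 and 10.52 (a difference of -0.25), RPA1 differed by -0.06 and RPA2 by 0.04.

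The enzymes that finish lagging-strand fragments and remove uracil were lower by both algorithms. UNG, the glycosylase that cuts uracil out of DNA, had RMA values of 10.02 in CD133+ and 10.36 in CD133- cells, a 1.27-fold difference. Its MAS5 signals were 6545 and 9386, a 1.43-fold difference and the lowest MAS5 difference among the members. FEN1, the flap nuclease, had 11.01 and 11.22, with a second probe set at -0.16 beside the -0.20 of the first. LIG1, the ligase that seals nicks, differed by -0.07. UNG and MCM10 were the genes lower by at least 0.32 with both RMA and MAS5, 2 of 57 against 3.95% of all genes.

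Nucleotide supply genes went both ways. DUT, which destroys dUTP and so keeps uracil out of DNA, was lower on all 3 probe sets, with RMA values of 10.51 and 10.82 on the brightest (a difference of -0.31) and differences of -0.37 and -0.22 on the others. TYMS, thymidylate synthase, read 11.81 in CD133+ and 12.02 in CD133- cells, a difference of -0.21. TK1, the salvage kinase for thymidine, was higher on both probe sets, by 0.19 (8.32 against 8.13) and 0.25, and by MAS5 at 0.35. The ribonucleotide reductase subunits RRM1 and RRM2 differed by 0.01 and -0.04, and their second probe sets by 0.22 and 0.06. The pair that guards DNA against uracil, UNG and DUT, lay among the 4 lowest genes of the 57, with MCM10 and MCM5, while the salvage enzyme of thymidine lay second from the top; this grouping was chosen after the values were seen.

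CHAF1A and CHAF1B, subunits of the factor that places new histones behind the fork, were lower by RMA at -0.22 and -0.12. CHAF1B had the opposite sign by MAS5 (0.27). SLBP, which binds the stem-loop of histone mRNAs, had 10.34 and 10.36 and differed by -0.02 on both scales.

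The upstream regulators lay near 0 by RMA. E2F1 and E2F2, the activating E2F factors, differed by 0.05 and 0.03 with RMA. E2F1 had the opposite sign by MAS5 (-0.41, signals of 647 and 860), and its second probe set was at -0.13 by RMA. MAS5 placed E2F2 at 0.52. CCNE2, a cyclin E gene, had 6.68 in CD133+ and 6.55 in CD133- cells, but its second probe set differed by -0.22; MAS5 gave 0.44 on the first. CCNE1 differed by -0.07 with RMA and 0.20 with MAS5. The group's median of 0.04 was 0.32 by MAS5 and -0.02 with the mean over probe sets, so the sign of these 4 genes was not settled.

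Readings from different probe sets of a gene were mostly on the same side. Of 97 replication probe sets above the floor, 75 were lower and 20 higher, with a median of -0.14; 51.8% of all 23130 named probe sets above the floor were lower. By at least 0.32, 8 of the 97 were lower, which is near the 6.63% of all named probe sets above the floor. None was higher by that much, and the share of all named probe sets that high was not counted. More than 1 probe set lay above the floor for 29 genes, and in 21 of them all had the same sign: 19 genes lower on all, and RRM1 and TK1 higher on all. The other 8 were RRM2, MCM7, RFC2, RFC3, E2F1, CCNE2, GINS4 and POLA2, where RFC3 had a value of 0 on its brightest probe set. Such agreement was not counted over all genes, so the 21 genes have no background share beside them. Probe sets of a gene also read the same arrays.

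**Figure D2:**
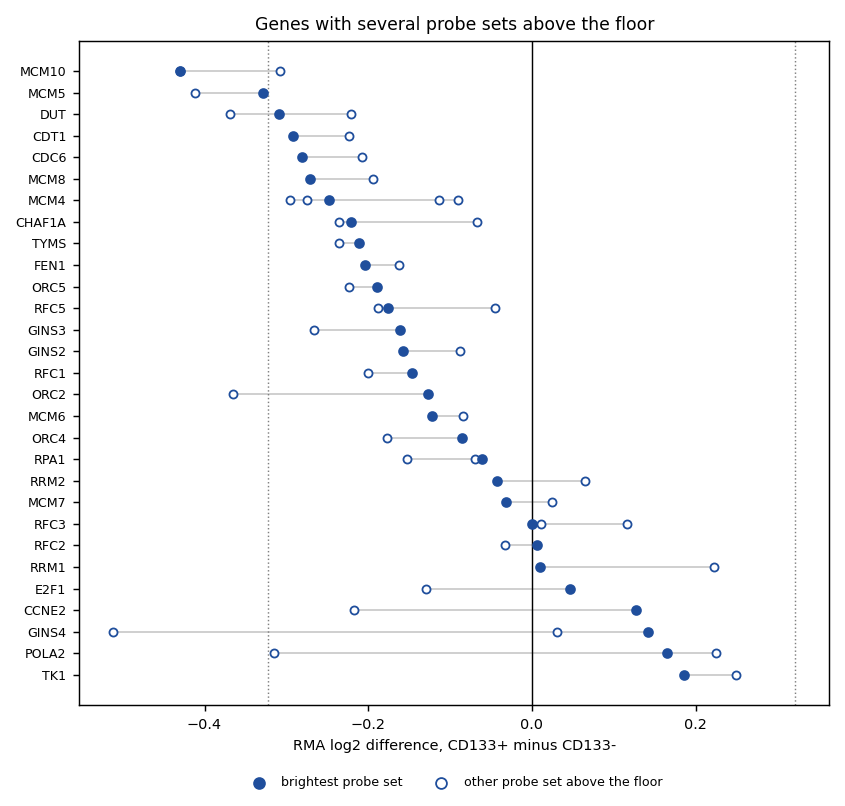
RMA log2 difference (CD133+ minus CD133-) of every probe set above the floor for the 29 replication genes with more than 1, filled for the brightest probe set and open for the others; dotted lines mark differences of 0.32. MCM10, MCM5, DUT, CDT1 and CDC6 have every point left of 0, and GINS4 spans from -0.51 to 0.14.

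Agreement with MAS5 was partial. Both algorithms gave the same sign for 46 of the 57 genes, 36 of them lower and 10 higher, against 39.0% and 36.5% of all genes above the floor. By MAS5 alone 40 genes were lower and 17 higher, with a median of -0.11, where 49.7% of all genes were lower and 50.3% higher. None was 2-fold lower or higher by MAS5, against 3.04% and 5.28% of all genes. By at least 0.32 with MAS5, 6 were lower (UNG, GINS3, E2F1, MCM10, FEN1 and MCM8) and 4 higher (CDT1, E2F2, CCNE2 and TK1), against 15.1% and 20.2% of all genes. The algorithms were taken to summarise the same arrays, so this is no second measurement.

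**Figure D3:**
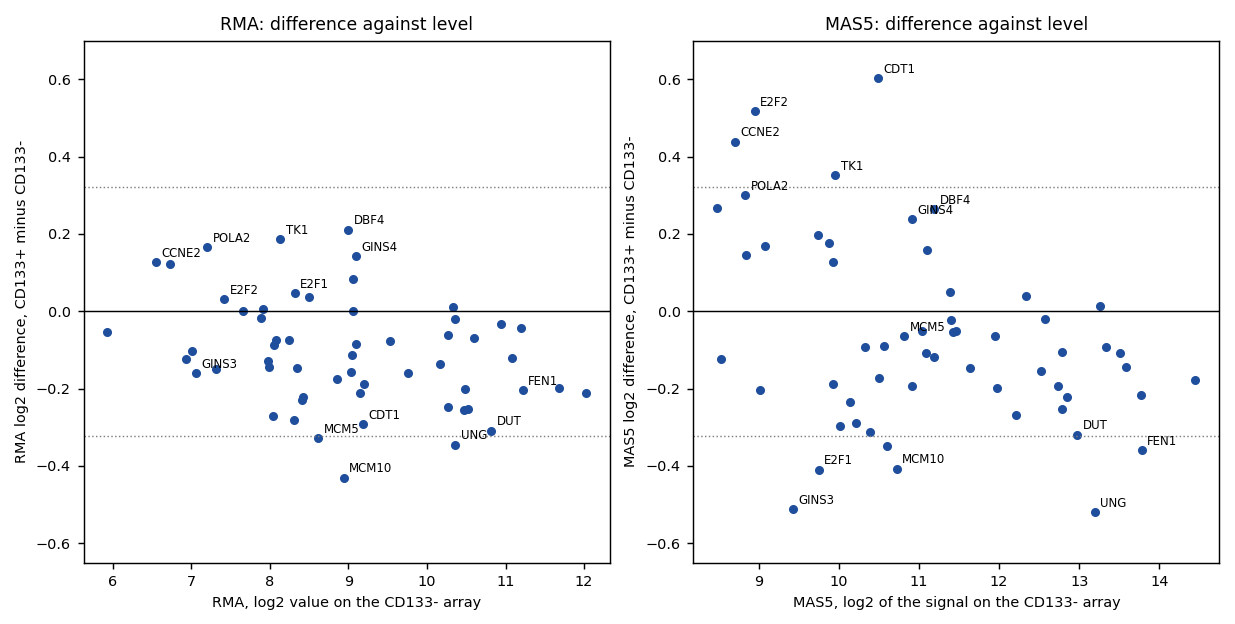
Log2 difference (CD133+ minus CD133-) of the 57 replication genes against their value on the CD133- array, by RMA on the left and by MAS5 (log2 of the signal) on the right; dotted lines mark differences of 0.32 and 14 genes are named. By MAS5 the 4 genes above the upper dotted line are CDT1, E2F2, CCNE2 and TK1, and by RMA none lies above it.

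Replication genes are brighter than most genes: the median over genes of the mean RMA value was 8.96, against 7.29 for all genes above the floor. With the floor raised to 6.79, the 75th percentile, 55 replication genes remained and 76.4% were lower, against 56.0% of the 7999 genes left.

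Other genes of the pathway, listed by role, were lower in part of the lists by RMA, beside the 51.1% of all genes that were lower. Of 22 further fork and origin genes above the floor 15 were lower, with a median of -0.06, from MCM9 (-0.41), the partner of MCM8, to POLE4 (0.39), a small subunit of polymerase epsilon. By MAS5 this list was even, with 11 lower and 11 higher. Of 22 further nucleotide synthesis genes 17 were lower, with a median of -0.10, and 16 were lower by MAS5. By RMA they ran from SHMT1 (-0.46), a serine-to-glycine enzyme of the folate cycle, to MTHFD2 (0.22), a mitochondrial enzyme of one-carbon metabolism. SHMT1 passed the floor only through the CD133- array, with RMA values of 4.75 in CD133+ and 5.21 in CD133- cells. Of 13 genes for chromatin copying and repair at the fork 11 were lower, with a median of -0.20, from the exonuclease EXO1 (-0.41) to the histone chaperone ASF1B (0.07); by MAS5 11 were lower as well, and 6 further genes of that list were not analysed here. Of 25 other G1/S regulators 13 were lower and 12 higher, with a median of -0.01. The lowest of these was CDC25A, a phosphatase that activates CDK2, at -0.35. The highest was CDKN1A, the inhibitor p21, with RMA values of 8.69 in CD133+ and 7.39 in CD133- cells, a 2.46-fold difference. It was the only gene at least 2-fold different among the 82 above the floor in these 4 lists. Of all genes above the floor, 1.65% were at least 2-fold higher and 0.116% at least 2-fold lower.

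Mitosis genes and histone genes, the cell-cycle sets nearest in kind, lay on either side of the replication genes. Of 30 mitosis genes, which had a median level of 8.99, 20 were higher and 10 lower, beside 45.6% and 51.1% of all genes. The median difference of the mitosis genes was 0.06. They ran from ECT2 (-0.24), a regulator of cytokinesis, to UBE2C (0.33), the ubiquitin-conjugating enzyme of the anaphase-promoting complex. Both algorithms placed 20 of the 30 mitosis genes higher and 5 lower, where they placed 10 of the 57 replication genes higher and 36 lower. Of all genes above the floor, both placed 36.5% higher and 39.0% lower. Of 27 replication-dependent histone genes above the floor 25 were lower, 19 of them by at least 0.32 and 5 at least 2-fold (H1-2, H2AC16, H2AC17, H2BC4 and H4C8), beside background shares of 5.57% and 0.116%. Their median was -0.66, and -0.39 with no floor, which brings in the dim histone genes. They ran from H2BC4 (-1.22) to H4C9 (0.07). H2BC4 passed the floor only through the CD133- array, with RMA values of 4.74 in CD133+ and 5.96 in CD133- cells. The same held for H3C1 (4.73 and 5.41) and H4C4 (4.43 and 5.23), so the sizes of these differences are uncertain. The median level of the 27 histone genes was 6.14, nearer the floor than that of the mitosis genes. Histone genes are similar in sequence and share probe sets, and most of their mRNA ends in a stem-loop and not in a poly(A) tail, from which the labelling kit named in the labels primes. The median of the replication genes thus lay between those of the mitosis and histone genes. No test of these differences between lists was possible with 1 array per population, and the cause was not tested.

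**Figure D4:**
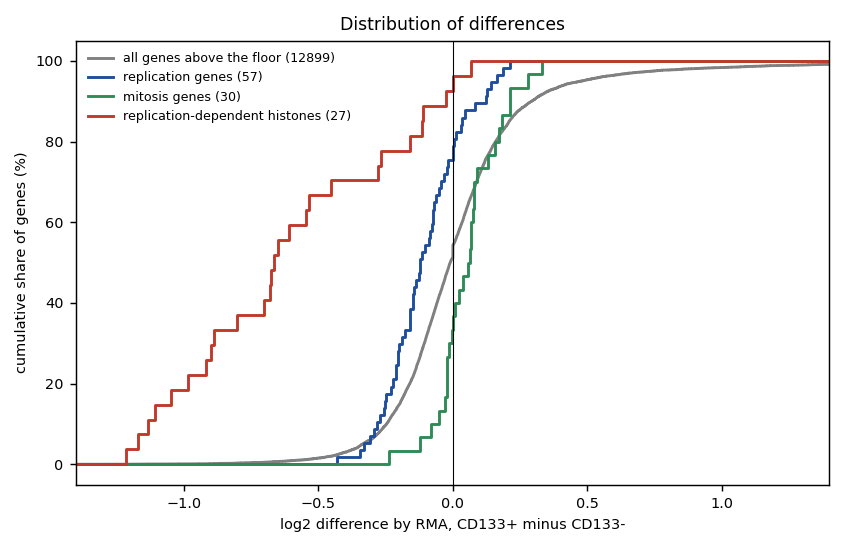
Cumulative share of genes (%) against the RMA log2 difference (CD133+ minus CD133-) for all 12899 genes above the floor, 57 replication genes, 30 mitosis genes and 27 replication-dependent histone genes; the axis stops at 1.4 on both sides. The replication curve lies left of the curve of all genes around 0, the mitosis curve right of it, and the histone curve far to the left, with medians of -0.12, -0.01, 0.06 and -0.66 for replication, all, mitosis and histone genes.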

How the data were processed

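RNA of CD133+ and CD133- Huh7 cells was measured on 1 array each. The MAS5 columns hold signal intensity on a linear scale, deposited by the authors with a common scaling (means after trimming 2% from each end were 500.1 on both arrays). The deposited RMA columns are on a log2 scale, as the labels and their range of 1.33 to 14.2 show. The submitters' processing notes name MAS5, RMA and GCOS; the sources used here give no versions. Both scalings equalise the arrays, so a global shift could not be seen. Symbols came from the platform annotation (41097 probe sets with 1 symbol, 1801 with several, 11777 not listed), and 41043 were updated to GRCh38.p14. The probe set with the highest mean RMA value stood for its gene. Differences, counts and medians were computed in Python 3.11.15 with pandas 2.3.3 and numpy 2.4.6, and the counting was tested on simulated data. The members and lists were chosen with earlier results of these data known. Named were PROM1, members past 0.32, the extremes of each role and list, list genes of at least 2-fold, and members on which algorithms or probe sets disagreed; further members were named to complete their role. The alternatives tried were MAS5, the mean over probe sets, no _s_at or _x_at probe sets, no floor, a higher floor and centring. The number of arrays limits the precision.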

Additional observations from a re-analysis of the deposited data

How the results depend on the processing

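Settings tried were MAS5, the mean over probe sets, no _s_at or _x_at probe sets, no floor, the higher floor and centring. In all of them the median difference of the replication genes stayed between -0.12 and -0.11. The number lower ran from 31 of 41 without _s_at or _x_at probe sets to 47 of 57 with the mean over probe sets. Across those settings 70.2% to 82.5% of the replication genes were lower, against 46.5% to 56.0% of all genes. The number lower by at least 0.32 was 6 by MAS5 and 2 with centring, where 15.1% and 5.19% of all genes were that low. Without _s_at or _x_at probe sets it was 1 (MCM5) of the 41 genes that remained, against 6.62% of all genes. By MAS5, 4 were higher by that much, against 20.2% of all genes. The counts at 2-fold were 0 in every setting. Role medians changed sign for polymerase alpha with primase (0.032) and replication protein A (0.041) by MAS5, for nucleotide supply (0.011) and the G1/S regulators (-0.023) with the mean over probe sets, and for the origin-firing kinase (-0.14) without _s_at or _x_at probe sets, where DBF4 was lost. The median of the G1/S regulators was 0.32 and that of the loading factors with geminin -0.09 by MAS5, and that of the histone genes -0.39 with no floor. The causes were not tested. No paired analysis was possible because each population has 1 array, and for the same reason no array could be left out.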
